A study of Rattus norvegicus with 105 samples.

Results

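The 9 genes described here make fatty acids and triglycerides or control that work: Acly, Acaca, Fasn, Elovl6, Me1, Srebf1, Gpam, Dgat2 and G0s2. They were chosen by name, as every detector probe whose row name, without its trailing number, is one of these symbols. Each gene had 1 probe, so they were 9 of 22253 probes and 9 of the 20946 gene symbols in the table. The cells were primary hepatocytes of female Sprague-Dawley rats from 1 commercial lot, grown on collagen in 96-well plates in serum-containing medium with insulin, transferrin and selenium. The exposures lasted 24 hours, with 1 of 3 solvents whose carbon chain is longer by a single carbon at each step, namely nitromethane (NM), then nitroethane (NE), and finally 1-nitropropane (1NP). Each was given at 8 concentrations: 0.003 and 0.01 mM, then 0.03 and 0.1 mM, then 0.3 and 1 mM, and at the top 3 and 10 mM. RNA was measured with TempO-Seq, a targeted assay that joins and sequences pairs of short detector oligonucleotides on each RNA, and there were 3 libraries in each of 35 groups. Set 1 held NM, NE, medium alone, the DMSO vehicle, benzo[a]pyrene (BaP) at 50 µM, CITCO at 10 and 20 µM, rifampin (RIF) at 20 and 40 µM and WY-14643 (WY) at 50 µM (72 libraries). Set 2 held 1NP, medium, DMSO and WY, titled 50 µM but named 100 in its libraries (33 libraries). Whether nitroalkane wells also held DMSO is not stated, so each treated group was compared with the DMSO and with the medium group of its own set. All treated groups of a set share those 3 control libraries of each kind, and with cells of 1 lot the p-values cover differences among wells, not among animals. The labels examined gave neither the age nor the number of the donor animals.

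In the liver, surplus carbohydrate is turned into fat by de novo lipogenesis. Acly splits citrate into cytosolic acetyl-CoA, Acaca carboxylates it to malonyl-CoA, Fasn builds palmitate from both, Elovl6 lengthens palmitate, and Me1 supplies NADPH for the reductions. Srebf1 encodes SREBP-1, the transcription factor that insulin and the oxysterol receptor LXR use to raise these enzymes. Gpam attaches the opening acyl chain to glycerol-3-phosphate, Dgat2 closes triglyceride synthesis by acylating diacylglycerol, and G0s2 inhibits adipose triglyceride lipase and so slows the breakdown of stored fat.

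Srebf1, Gpam and G0s2 were the 3 members called higher with 10 mM NE against both controls with all libraries in the fit, and the 250 bases before their annotated starts are shown to set their proximal promoters side by side. The sequences are from RefSeq (GRCr8), where 5 of the 9 genes had an entry (Acly, Me1, Srebf1, Gpam and G0s2). All 4 windows lie on the minus strand, are written 5′ to 3′ towards the start, and lie at chr10:45529165-45529414 and chr10:45519011-45519260 (Srebf1, starts 1 and 2), chr1:264175912-264176161 (Gpam) and chr13:107335949-107336198 (G0s2). Capitals mark CCAAT boxes (CCAAT or ATTGG) and GC boxes (GGGCGG or CCGCCC), which do not overlap each other here.
Srebf1 start 1: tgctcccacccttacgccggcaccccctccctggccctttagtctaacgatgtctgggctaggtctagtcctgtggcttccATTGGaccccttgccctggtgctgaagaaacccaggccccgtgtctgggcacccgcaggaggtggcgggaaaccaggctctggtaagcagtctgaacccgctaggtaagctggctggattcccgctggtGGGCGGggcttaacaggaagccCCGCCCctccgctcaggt
Srebf1 start 2: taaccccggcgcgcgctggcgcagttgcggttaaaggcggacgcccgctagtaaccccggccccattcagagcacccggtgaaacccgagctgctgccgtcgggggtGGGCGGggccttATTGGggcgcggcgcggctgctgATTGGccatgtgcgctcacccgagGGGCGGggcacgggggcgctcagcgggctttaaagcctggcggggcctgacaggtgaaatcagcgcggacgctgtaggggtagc
Gpam: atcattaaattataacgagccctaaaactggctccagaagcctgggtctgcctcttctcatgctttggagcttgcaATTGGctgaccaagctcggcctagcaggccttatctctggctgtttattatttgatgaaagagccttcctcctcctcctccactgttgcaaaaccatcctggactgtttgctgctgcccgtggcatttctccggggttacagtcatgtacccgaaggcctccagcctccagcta
G0s2: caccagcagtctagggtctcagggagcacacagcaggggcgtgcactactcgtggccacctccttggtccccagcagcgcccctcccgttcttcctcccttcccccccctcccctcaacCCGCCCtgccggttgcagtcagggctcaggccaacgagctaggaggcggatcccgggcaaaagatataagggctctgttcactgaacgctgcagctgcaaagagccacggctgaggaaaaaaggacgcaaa
The upstream Srebf1 start had 1 CCAAT box and 2 GC boxes, the other Srebf1 start 2 of each, Gpam 1 CCAAT box and no GC box, and G0s2 1 GC box and no CCAAT box. The windows of Acly and Me1, not shown, had 1 CCAAT box and 3 GC boxes (Acly) and no CCAAT box and 5 GC boxes (Me1). Among 33469 RefSeq windows of this length, 34% held a CCAAT box and 30.5% a GC box on either strand. None of the 4 windows held the E-box CACGTG (5.59% of windows), TCACNCCA, the core of a sterol regulatory element (3.24%), or the nuclear receptor half-site AGGTCA (14.1%), each searched on both strands. These counts describe letters in the window and no site of binding.

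Library totals ran from 5475419 to 11122665 counts (median 8680678), and the members' counts per library from 31 (Elovl6) to 2891 (Acly), so all 9 passed the filter on low counts in every fit. There were 6 libraries that stood apart: NE 10 mM replicate 2, NE 0.01 mM replicate 3, NM 1 mM replicate 1, NM 3 mM replicate 1, NM 10 mM replicate 3 and 1NP 10 mM replicate 3. Their mean correlation with the other libraries of their group was 0.86 to 0.959, against a median of 0.985 and a lowest value of 0.924 over the other 99, and NE 10 mM replicate 2 had counts at 21627 probes against a median of 13792. No single cut-off on that correlation separates the 6 from the rest, and they were picked after seeing the data. Several of them were also extreme in Dgat2, Gpam and Acaca, so calls gained without them rest partly on that choice. Hepatocyte markers summed to 6398 to 8634 CPM (counts-per-million of the library total) with 10 mM NE, 8626 to 10790 in set 1 medium and 14580 to 15800 in set 1 DMSO. Cholangiocyte markers (5 genes) summed to 220 to 278 CPM with 10 mM NE against 627 to 721 in medium, and adipocyte markers (5 genes) to at most 13.4 CPM in any library, with Plin1, Retn, Lep and Cfd at a median of 0. With 10 mM NE the highest library sums were 18.8 CPM for stellate cell and fibroblast markers (7 genes, at most 5.01 in set 1 medium), 17.6 CPM for Kupffer cell markers (6 genes, at most 1.25), 10.5 CPM for endothelium (5 genes, 0), 7.46 CPM for lymphocytes (4 genes, at most 0.125) and 5.33 CPM for erythroid cells (3 genes, 0). The lowest sums in that group were 0.333, 0.990, 0, 0 and 0 CPM in the same order, so these highs were not shared by all 3 libraries. That group holds NE 10 mM replicate 2, with its counts at 21627 probes, and the part of that library in the highs was not tested. In such bulk libraries fewer cells of a type and less RNA per cell cannot be told apart, and the part of these shifts in the results below was not tested.

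The controls themselves differed in the genes described here, chiefly in G0s2. G0s2 was at 10.5, 9.68 and 10.9 CPM in set 1 DMSO and at 22.4, 25.9 and 24.8 CPM in set 1 medium. In set 2 it was at 8.48, 8.16 and 7.32 CPM with DMSO and at 23.5, 28.1 and 23.5 CPM with medium. All medium libraries were above all DMSO libraries of their set. The log2 difference, medium minus DMSO, was 1.19 ± 0.17 (SE, adjusted p 2.44e-05, edgeR quasi-likelihood test) in set 1 and 1.54 ± 0.21 (adjusted p 4.76e-05) in set 2. G0s2 was the only member of 9 called in set 1, where 7.06% of all probes tested were called at an adjusted p under 0.05. In set 2, 4 of 9 were called beside 24.0% of all probes: G0s2 and Fasn (log2 0.36 ± 0.11) were higher in medium, and Acly (-0.40 ± 0.10) and Elovl6 (-0.89 ± 0.22) were lower. The Fasn call was lost without any 1 of the 3 DMSO libraries and the Acly call without DMSO replicate 6 (log2 0.32 to 0.40 and -0.43 to -0.36 over all libraries left out).

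**Figure D1:**
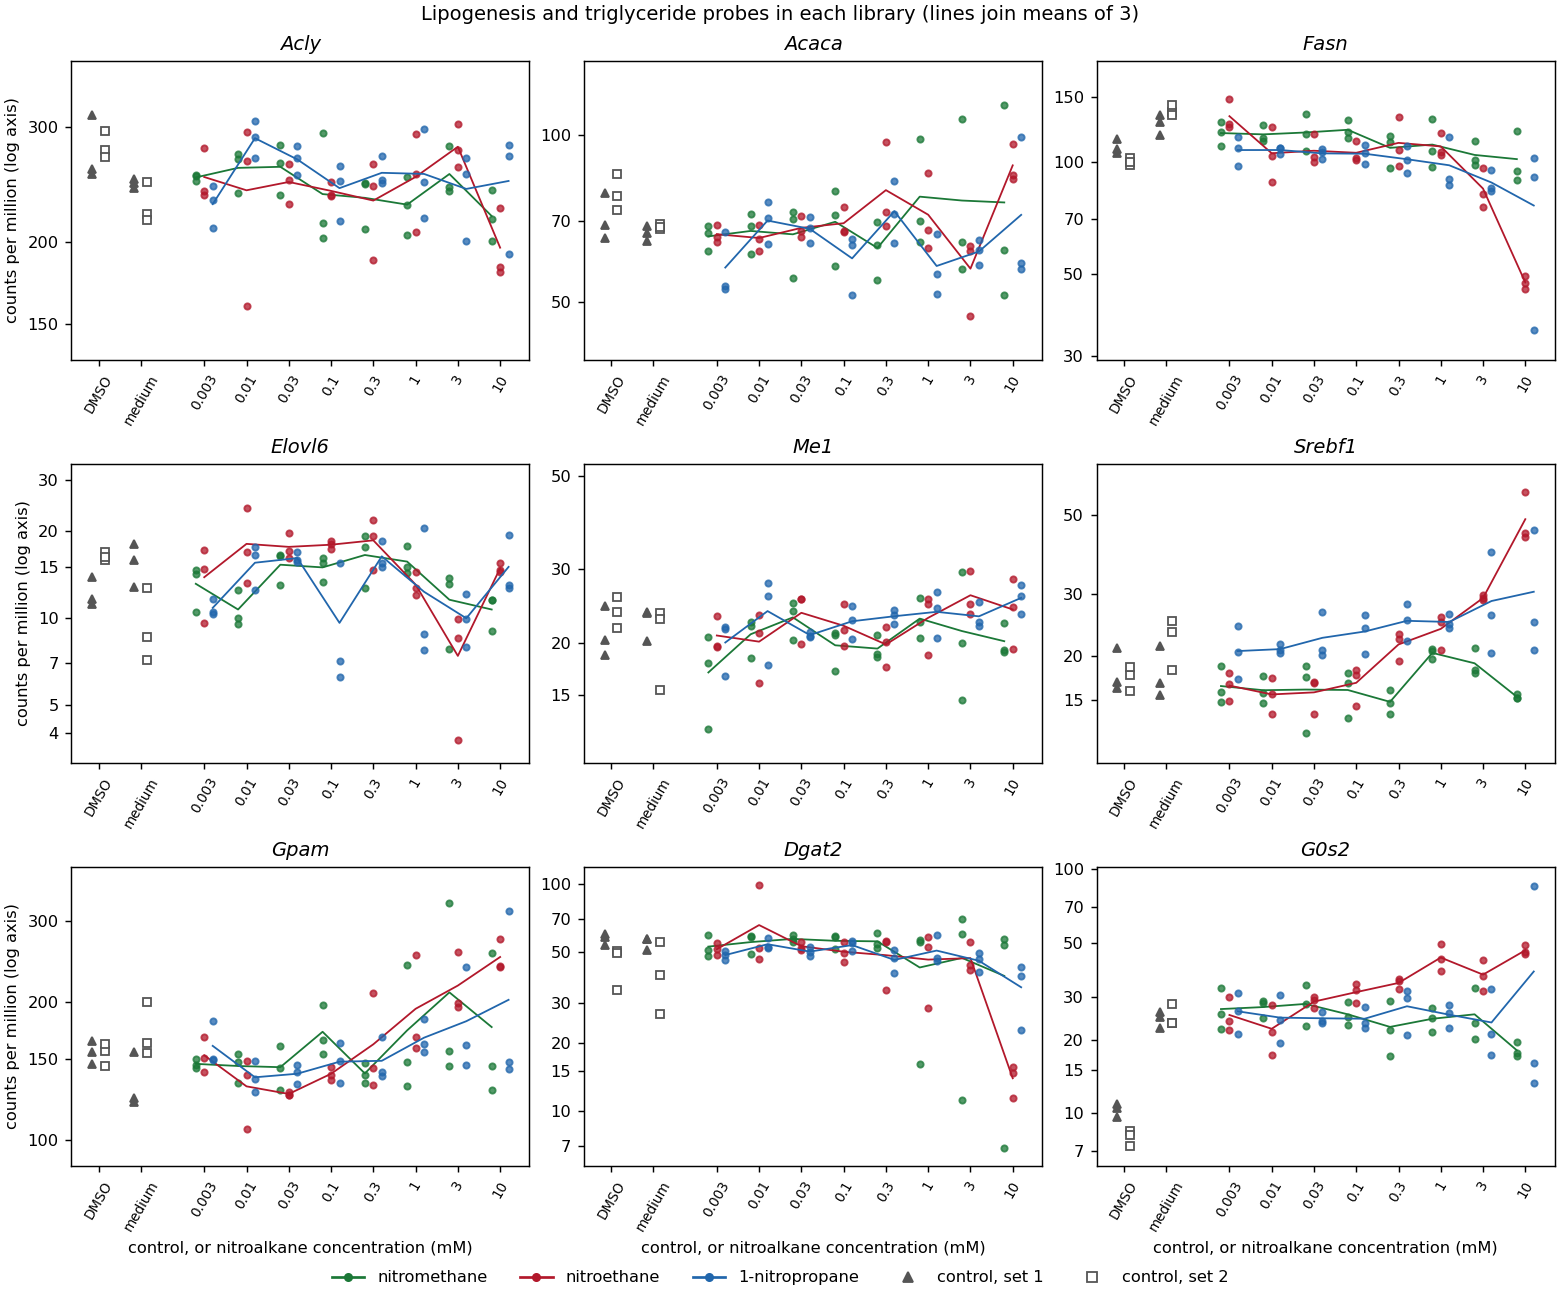
Counts-per-million (log axis) of the 9 probes in each library, for DMSO and medium (triangles set 1, squares set 2) and the 8 concentrations of NM, NE and 1NP; lines join the means of 3 libraries. With NE, Fasn and Dgat2 end low and Srebf1, Gpam and G0s2 end high at 10 mM, while single NM libraries at 1, 3 and 10 mM sit near the NE values of Dgat2 and Gpam.

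Nitroethane at 10 mM moved the members in both directions. Against DMSO, 6 of 9 were called, where 28.9% of all probes were: Srebf1, Gpam and G0s2 higher, Fasn, Acly and Dgat2 lower. Against medium, 6 of 9 were called beside 34.0% of all probes: Srebf1, Gpam, G0s2 and Acaca higher, Fasn and Dgat2 lower. The median log2 change of the 9 members was 0.23 against DMSO and 0.10 against medium, and over all probes it was 0.03 in both. At 3 mM NE, Srebf1, Gpam and G0s2 were called higher against DMSO (6.08% of all probes called), and against medium the same 3 were higher while Fasn and Elovl6 were lower (11.5%). At 1 mM NE only G0s2 was called, against DMSO (2.81%) and against medium (0.219%). From 0.003 to 0.3 mM NE, G0s2 was the only member called against DMSO, where 2.97, 2.68, 2.68, 3.44 and 5.29% of all probes were called in order of concentration. Against medium none was called at those 5 concentrations (0, 0.0162, 0, 0 and 0.0324% of all probes); there edgeR gave 3 of 45 member tests an unadjusted p under 0.05 and DESeq2 called 0.

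With NM, G0s2 was the only member called at any concentration, and only against DMSO. All 8 concentrations called it, where 3.88, 1.01, 1.77, 2.03, 3.14, 2.05, 0.679 and 7.19% of all probes were called in order of concentration. Against medium no member was called (0, 0, 0, 0, 0, 0.00818, 2.32 and 0.662% of all probes); edgeR gave 7 of 72 member tests an unadjusted p under 0.05, and DESeq2 called 0. Without the 6 libraries that stood apart, Fasn was also called at 10 mM NM, lower by both comparisons (log2 -0.33 against DMSO, adjusted p 0.029, and -0.48 against medium, adjusted p 0.00498), and Acaca lower against DMSO (-0.39, adjusted p 0.0365).

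With 1NP, 3 members were called at 0.003 mM against DMSO (20.0% of all probes): G0s2 higher, Acaca and Acly lower. The call of each was lost when single libraries were left out, Acly and G0s2 without any 1 of the 6 and Acaca without DMSO replicate 4 or 5 or treated replicate 1 or 2 (log2 changes of -0.46 to -0.29, 1.52 to 1.72 and -0.62 to -0.47). At 10 mM only G0s2 was called against DMSO (2.17%) and only Fasn, lower, against medium (10.2%). None was called from 0.01 to 3 mM against DMSO (0.405, 1.02, 5.09, 1.02, 1.49 and 0.570% of all probes), with 13 of 54 member tests at an unadjusted p under 0.05 in edgeR and 6 called by DESeq2, all G0s2. None was called from 0.003 to 3 mM against medium (0.00824, 0.190, 0, 0.0165, 0, 0.0660 and 0.223% of all probes), with 10 of 63 at an unadjusted p under 0.05 and 0 called by DESeq2.

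**Figure D2:**
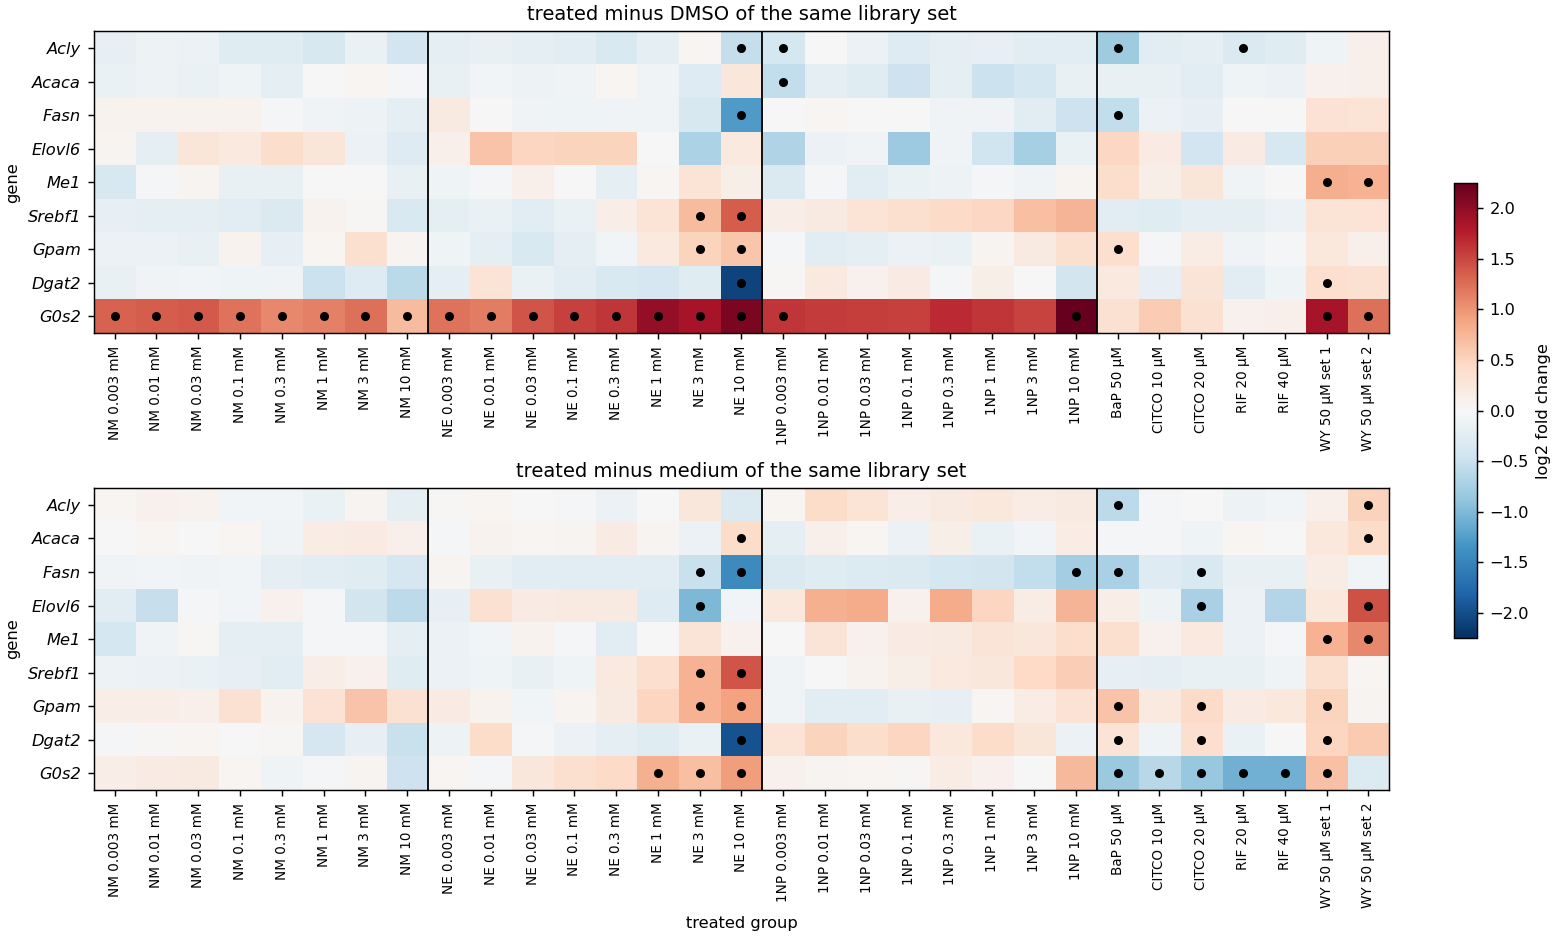
Log2 fold changes of the 9 members (rows) in every treated group (columns), against DMSO above and against medium below; black dots mark an adjusted p under 0.05 (edgeR). The row of G0s2 is red in all NM, NE and 1NP columns against DMSO, and pale in most of them against medium, where BaP, CITCO and RIF are blue.

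Fasn, the enzyme that builds palmitate, had the largest change among the members of fatty acid synthesis with 10 mM NE. It was at 108, 106 and 116 CPM in set 1 DMSO, at 128, 118 and 134 CPM in set 1 medium, and at 47.3, 49.1 and 45.5 CPM with 10 mM NE. The 3 NE libraries lay below every other library of set 1, of which BaP at 72.9 CPM came nearest. The log2 change was -1.27 ± 0.12 against DMSO (adjusted p 1.28e-08) and -1.42 ± 0.12 against medium (adjusted p 1.36e-09), that is 2.42-fold and 2.68-fold lower. At 3 mM NE it was at 75.6, 82 and 96.6 CPM, below both controls without overlap, with a log2 change of -0.50 ± 0.12 against medium (adjusted p 0.00665) and -0.36 ± 0.12 against DMSO (adjusted p 0.0804). Without a filter on low counts the value against medium at 3 mM had an adjusted p of 0.0507. At 10 mM 1NP it was at 103, 91.2 and 35.2 CPM, so that only replicate 3 was near the NE level. The log2 change there was -0.79 ± 0.20 against medium (adjusted p 0.0207), and -0.47 (adjusted p 0.0607) without the libraries that stood apart. Leaving out set 2 medium replicate 5 also ended that call. Without the libraries that stood apart Fasn was instead called lower against medium at 3 mM 1NP (-0.57, adjusted p 0.00483) and at 0.3 mM (-0.42, adjusted p 0.045).

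Acly is the source of cytosolic acetyl-CoA, and its 3 libraries at 10 mM NE held 225, 183 and 180 CPM against 313, 254 and 259 CPM in DMSO and 242, 246 and 250 CPM in medium. It was lower than in either control in every NE library. The log2 change was -0.54 ± 0.18 against DMSO (adjusted p 0.0229) and -0.32 against medium (adjusted p 0.164). The call against DMSO was lost without DMSO replicate 1, or without NE replicate 2 or 3 (log2 -0.72 to -0.41 over the 6 libraries left out, highest adjusted p 0.125). Acaca, which makes malonyl-CoA, went the other way: 96.6, 83.3 and 85 CPM with 10 mM NE against 68.7, 64.5 and 66.6 CPM in medium and 78.8, 69 and 65.3 CPM in DMSO. Its NE libraries were above all control libraries, with a log2 change of 0.41 ± 0.14 against medium (adjusted p 0.0209) and 0.26 against DMSO (adjusted p 0.169). The call against medium was lost without medium replicate 2 or 3 or NE replicate 1 (log2 0.27 to 0.53), and without a filter on low counts (adjusted p 0.132); without the libraries that stood apart Acaca was called against both controls (0.54 and 0.38).

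Elovl6, which lengthens palmitate to stearate, had counts down to 31 and was the member whose libraries of a group spread most, by the median coefficient of variation (15.97% in set 1 and 20.9% in set 2). At 3 mM NE it was at 8.5, 9.89 and 3.79 CPM against 18, 12.8 and 15.8 CPM in medium and 13.8, 11.6 and 11.2 CPM in DMSO. All 3 libraries were below all controls, with a log2 change of -1.01 ± 0.30 against medium (adjusted p 0.0259) and -0.72 against DMSO (adjusted p 0.161). The call was lost without NE replicate 3 or medium replicate 1 or 3 (log2 -1.26 to -0.68). At 10 mM NE Elovl6 stood at 15.5, 14.7 and 14.4 CPM, within the range of the medium libraries, so its 3 mM value was not part of a steady fall. Me1, a source of NADPH, was at 28.4, 24.4 and 19.3 CPM with 10 mM NE, and its log2 changes of 0.12 against DMSO and 0.10 against medium did not pass the test. No concentration of NM, NE or 1NP called Me1.

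Srebf1, the regulator of these enzymes, rose while Fasn fell. With 10 mM NE it was at 43.5, 57.9 and 44.5 CPM against 16.2, 16.9 and 21.1 CPM in DMSO and 15.5, 21.4 and 16.9 CPM in medium. No control library overlapped, and the log2 change was 1.35 ± 0.15 against DMSO (adjusted p 9.38e-08) and 1.42 ± 0.15 against medium (adjusted p 4.77e-08). At 3 mM it was at 28.7, 29.7 and 29.1 CPM, with log2 changes of 0.71 ± 0.15 (adjusted p 0.00356) and 0.78 ± 0.15 (adjusted p 0.000945). Those 6 values stood above every control library of set 1, and all 4 calls held whichever library was left out. With 10 mM NM the 3 libraries held 15.6, 15.2 and 15.2 CPM, and with 10 mM 1NP 20.8, 25 and 45.4 CPM. The 1NP group overlapped with its medium, and its replicate 3 alone reached the level of NE. A single probe was read for this gene, so transcripts from its different starts were not told apart.

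Gpam, the enzyme of the opening step of triglyceride assembly, was higher with NE at 3 and 10 mM. It was at 156, 147 and 165 CPM in set 1 DMSO and 121, 124 and 156 CPM in set 1 medium. At 3 mM NE it reached 195, 199 and 257 CPM and at 10 mM 239, 275 and 239 CPM. All 6 libraries were above all 6 controls. The log2 change at 10 mM was 0.62 ± 0.14 against DMSO (adjusted p 0.00163) and 0.90 ± 0.15 against medium (adjusted p 2.97e-05). At 3 mM it was 0.50 ± 0.14 (adjusted p 0.0352) and 0.78 ± 0.15 (adjusted p 0.00064); the first of these was lost when any 1 DMSO library, or NE replicate 2 or 3, was left out (log2 0.36 to 0.57), and had an adjusted p of 0.0915 without a filter.

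Dgat2, the enzyme of the closing step, fell with 10 mM NE by more than any other member. It was at 58.2, 53.7 and 60.2 CPM in DMSO, 57.1, 51 and 57.3 CPM in medium and 15.6, 11.5 and 14.8 CPM with 10 mM NE. The log2 change was -2.08 ± 0.30 against DMSO (adjusted p 8e-06, 4.24-fold lower) and -1.97 ± 0.31 against medium (adjusted p 1.37e-05, 3.91-fold lower). At 3 mM NE, 41.9, 43.7 and 55.6 CPM overlapped with medium, and the changes of -0.27 and -0.15 did not pass. Single libraries of other groups were as low as the NE libraries: 6.9 CPM in NM 10 mM replicate 3, 11.2 CPM in NM 3 mM replicate 1 and 16 CPM in NM 1 mM replicate 1, while the other 2 libraries of those groups held 54 to 70.3 CPM. The same 3 libraries were high in Gpam, at 255, 328 and 241 CPM, where their companions held 129 to 157 CPM, and high in Acaca, at 113, 107 and 98.3 CPM against 51.6 to 70 CPM. In Srebf1 they held 15.2, 21.1 and 21 CPM and in Fasn 121, 114 and 131 CPM, so they did not share the high Srebf1 and low Fasn of 10 mM NE.

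Low Dgat2 and high Gpam stood together in single libraries of some other groups too. Over all 35 groups, the library lowest in Dgat2 was the highest in Gpam in 16 groups, and the highest in Acaca in 16. With 3 libraries in a group, unrelated values would match so in about 1 of 3 groups. In 8 of the 35 groups the highest Dgat2 value was over 1.5 times the lowest. In 7 of these 8 the library lowest in Dgat2 was also the highest in Gpam and in Acaca, the exception being set 2 medium. These 8 include the 3 NM groups described above, so they are no independent check of the pairing. NE 0.01 mM replicate 3 showed the reverse of the NM libraries, with Dgat2 at 98.6 and Gpam at 106 CPM against 46.7 to 52.1 and 139 to 149 CPM in its companions. That group is among the 7 through this high Dgat2 value, not through a library low in Dgat2. These pairings were seen in the values and were not tested.

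**Figure D3:**
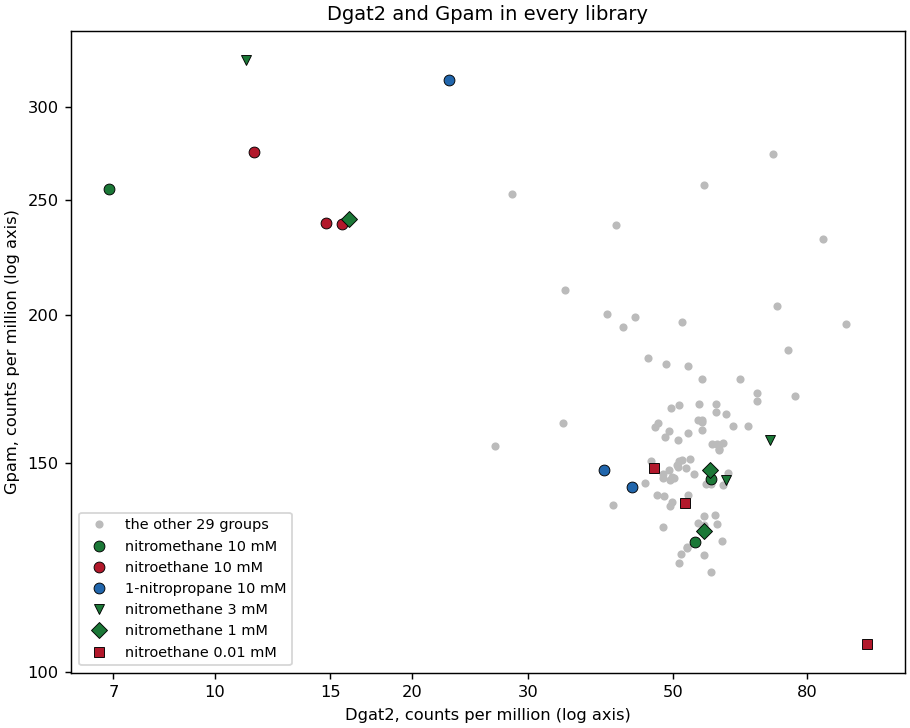
Gpam against Dgat2, both in counts-per-million on log axes, in every library; 6 groups are coloured and the rest are grey. The 3 libraries of 10 mM NE and 1 library each of NM at 1, 3 and 10 mM lie at the upper left, with Dgat2 at 6.9 to 16 and Gpam at 239 to 328, and 1NP 10 mM replicate 3 lies nearest to them.

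G0s2, the inhibitor of triglyceride breakdown, rose with the concentration of NE from the level of medium. From 0.003 to 10 mM its group means were 25.3, 22.2, 28.7, 31.4, 34.2, 43.5, 37 and 46.6 CPM. At 10 mM the libraries held 48.8, 45.9 and 45 CPM, above all libraries of medium (22.4 to 25.9 CPM) and DMSO. The log2 change at 10 mM was 0.94 ± 0.15 against medium (adjusted p 2.77e-05) and 2.11 ± 0.16 against DMSO (adjusted p 1.91e-10). Against medium 3 mM gave 0.68 ± 0.15 (adjusted p 0.00352) and 1 mM 0.79 ± 0.15 (adjusted p 0.0187); the call at 1 mM was lost without any 1 of the medium libraries (log2 0.74 to 0.84). Against DMSO the log2 change ran from 1.15 to 2.11 over the 8 concentrations of NE.

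With NM, G0s2 passed no test against medium. Its log2 change against DMSO was 1.32, 1.36, 1.38, 1.22, 1.09, 1.13, 1.24 and 0.70 from 0.003 to 10 mM, and medium itself differed from DMSO by 1.19. At 10 mM NM the libraries held 17.6, 19.6 and 17.2 CPM, below all medium libraries and above all DMSO libraries. The change there was 0.70 ± 0.19 against DMSO (adjusted p 0.0281) and -0.47 ± 0.19 against medium (adjusted p 0.263). The call against DMSO was lost without any 1 DMSO library or NM replicate 1 or 2 (log2 0.62 to 0.78), and in a fit of only the 2 groups (adjusted p 0.197) or with no filter on low counts (0.0522). In fits of only the 2 groups the calls at 1 and 3 mM NM were lost too (adjusted p 0.0518 and 0.535), as were those of NE at 0.01 mM against DMSO (0.139) and at 1 mM against medium (0.0713).

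With 1NP, G0s2 stood near medium up to 3 mM. Its log2 changes against DMSO lay between 1.52 and 1.69 from 0.003 to 3 mM, with no library of either group overlapping. Their standard error was 0.48, against 0.16 for NE, in a fit that held the 1NP 10 mM group, whose G0s2 values were 16.1, 13.3 and 85.1 CPM. Without the libraries that stood apart all 7 concentrations from 0.003 to 3 mM were called, with adjusted p between 6.88e-06 and 6.51e-05, and 10 mM had a log2 change of 0.81 (adjusted p 0.0505) in place of 2.24. Against medium the log2 change at 10 mM was 0.73 (adjusted p 0.279) with all libraries and -0.73 (adjusted p 0.123) without those, so its direction turned. The call at 10 mM was also lost without any 1 DMSO library. Replicate 3 at 10 mM thus set the value of that group, and it was also the library with low Fasn and Dgat2 and high Srebf1, Gpam and Acaca.

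**Figure D4:**
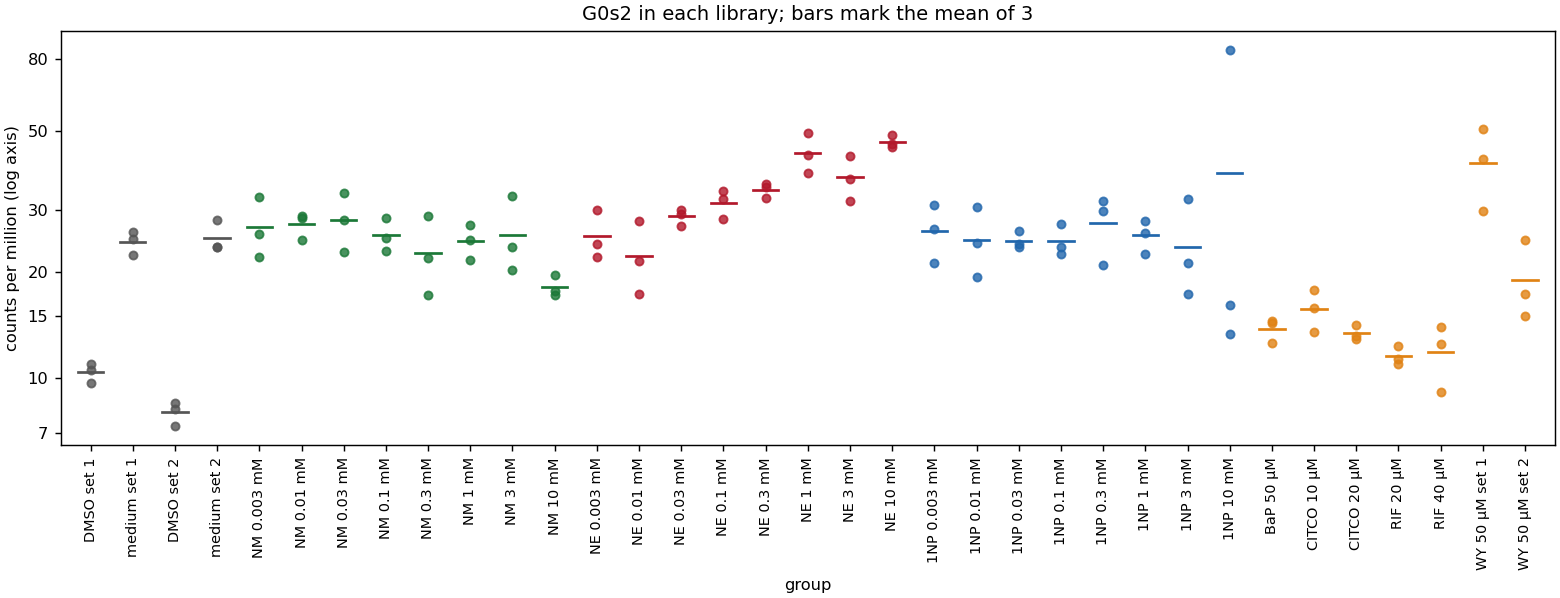
G0s2 in counts-per-million (log axis) in every library of the 35 groups; bars mark group means, grey controls, green NM, red NE, blue 1NP and orange reference compounds. DMSO lies at 7.32 to 10.9 and medium at 22.4 to 28.1; RIF lies at 9.12 to 13.9, near DMSO, BaP and CITCO at 12.6 to 17.8, between DMSO and medium, and only NE from 0.1 mM up and WY of set 1 have all 3 libraries above the medium libraries of both sets.

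A trend over the 8 concentrations was fitted without any control. For NE, 5 of 9 members had a called slope per step of concentration, where 26.1% of all probes did: Srebf1 0.21 ± 0.02, G0s2 0.14 ± 0.02 and Gpam 0.12 ± 0.02 upward, Fasn -0.13 ± 0.03 and Dgat2 -0.17 ± 0.05 downward (log2 per step). Without 10 mM the slopes of Srebf1 (0.15), G0s2 (0.14), Gpam (0.10) and Fasn (-0.06) were still called, and that of Dgat2 (-0.06, adjusted p 0.422) was not. In that fit 5.32% of all probes had a called slope. Without the libraries that stood apart the Dgat2 slope was -0.09 (adjusted p 0.108). For NM only Fasn had a called slope (-0.04 ± 0.01, 9.88% of all probes), and without 10 mM it was -0.04 (adjusted p 0.101). Without the libraries that stood apart the NM slopes of Fasn (-0.06, adjusted p 0.00313) and of G0s2 (-0.07, adjusted p 0.0228) were both called. For 1NP only Srebf1 did (0.09 ± 0.02, 4.77%), with 0.08 (adjusted p 0.104) without 10 mM and 0.06 (adjusted p 0.206) without the libraries that stood apart. Concentration and plate row were joined in the layout and cannot be told apart.

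The 3 nitroalkanes were compared at equal concentrations in 24 pairs. NE and NM, both in set 1, were compared directly. At 10 mM, Srebf1 was higher with NE than with NM by a log2 of 1.70 ± 0.21 (adjusted p 0.00214 over all probes and 0.000626 over the 24 pairs), G0s2 by 1.42 ± 0.22 (0.00519 and 0.00335), and Fasn was lower by a log2 difference of -1.05 ± 0.20 (0.012 and 0.0133). These were 3 of 9 members beside 11.7% of all probes. The Fasn call was lost without NE 10 mM replicate 1 (-1.10, adjusted p 0.0656) or replicate 3 (-1.05, adjusted p 0.0776), while Srebf1 and G0s2 were called whichever of the 6 libraries was left out. Dgat2 differed by -1.45 (95% interval -2.73 to -0.17, adjusted p 0.201) and Gpam by 0.56 (0.06 to 1.07, adjusted p 0.206). These intervals use a normal approximation and are too narrow for 3 libraries a group. The unadjusted p-values of the edgeR test were 0.056 and 0.0586, so neither difference passed at 0.05 before adjustment either. Without NM 10 mM replicate 3, Dgat2 (-1.95, adjusted p 2.35e-05), Gpam (0.89, adjusted p 0.00336) and Acaca (0.67, adjusted p 0.0198) were called as well. Below 10 mM no member was called over all probes between NE and NM (0, 0, 0.00878, 0, 0, 0 and 0.0179% of all probes); 9 of 63 member tests in edgeR had an unadjusted p under 0.05. Adjusted over the 24 pairs, G0s2 at 1 mM passed (0.84 ± 0.16, adjusted p 0.012).

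Since 1NP belonged to set 2, its change from its own control was compared with those of NM and NE. No member was called at 10 mM with either control (0% of all probes in all 4 fits, 7 of 36 member tests at an unadjusted p under 0.05 in edgeR). The largest of those differences was in Dgat2 between 1NP and NE, 1.67 (95% interval 1.02 to 2.33, adjusted p 0.0944 over all probes and 0.00495 over the 24 pairs) with DMSO as control and 1.83 (1.10 to 2.57, 0.255 and 0.0051) with medium. For Srebf1 the interval of 1NP minus NE was -1.29 to 0.11 with DMSO and -1.64 to -0.14 with medium, and for G0s2 it was -1.53 to 1.79 and -1.80 to 1.35. All these intervals rest on the same normal approximation, so they are too narrow. Only Elovl6 was called over all probes below 10 mM: 1NP minus NE at 0.1 mM with DMSO (-1.31 ± 0.32, adjusted p 0.00889, 15.4% of all probes) and 1NP minus NM at 0.01 mM with medium (1.28 ± 0.31, adjusted p 0.0358, 2.12%). Neither call was made with the other control. Adjusted over the 24 pairs, Srebf1 in 1NP minus NM at 0.3 mM with DMSO also passed (0.76 ± 0.22, adjusted p 0.0151, and 0.659 over all probes). The other fits below 10 mM called between 0 and 6.53% of all probes and no member (0.861, 5.40 and 1.36% in the remaining fits with DMSO that called any, 0.00847 and 0.0254% with medium).

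Among the reference compounds, WY, an activator of the fatty acid receptor PPAR-alpha, raised Me1 in both sets. Me1 was at 38.3, 44.3 and 38.8 CPM in set 1, against 20.4, 18.7 and 24.5 CPM in DMSO and 23.5, 20.2 and 23.7 CPM in medium. In set 2 WY gave 44.4, 38.3 and 41.1 CPM against 25.7, 21.7 and 23.6 CPM in DMSO and 23.5, 15.5 and 22.8 CPM in medium. No WY library overlapped with a control. The log2 change was 0.82 ± 0.14 against DMSO (adjusted p 0.00038) and 0.78 ± 0.14 against medium (adjusted p 0.000538) in set 1, and 0.78 ± 0.18 (adjusted p 0.0321) and 1.08 ± 0.18 (adjusted p 0.000358) in set 2. In set 2 the call against DMSO was lost without any 1 of the 6 libraries (log2 0.72 to 0.85, highest adjusted p 0.223).

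WY also moved G0s2, with 41.9, 50.8 and 29.7 CPM in set 1 and 24.6, 17.4 and 15 CPM in set 2. Set 1 WY was above both controls (1.85 ± 0.17 against DMSO, adjusted p 1.76e-08, and 0.66 ± 0.16 against medium, adjusted p 0.00987), while set 2 WY was above DMSO (1.23 ± 0.21, adjusted p 0.00238) and overlapped with medium (-0.31, adjusted p 0.29). The set 1 call against medium was lost without medium replicate 1 or WY replicate 2 (log2 0.49 to 0.84). Dgat2 was called higher in set 1 against DMSO (0.38 ± 0.11) and medium (0.48 ± 0.11), the first lost without any 1 DMSO library or WY replicate 1 or 2 (0.30 to 0.48) and the second without WY replicate 1 (0.41 to 0.59). Gpam was called in set 1 against medium (0.51 ± 0.12), lost without medium replicate 1 or 2 or WY replicate 2 (0.40 to 0.63). In set 2 Acly (0.51 ± 0.10), Acaca (0.41 ± 0.12) and Elovl6 (1.43 ± 0.22) were called against medium only, Acaca not without medium replicate 5 or WY replicate 4 or 5 (0.37 to 0.46). Set 2 medium was itself lower than DMSO in Acly (log2 -0.40) and Elovl6 (-0.89). The part of that gap in these changes was not tested. The counts were 3 of 9 against DMSO (4.88% of all probes) and 4 of 9 against medium (5.80%) in set 1, and 2 of 9 (0.901%) and 4 of 9 (16.9%) in set 2. Every member called with WY was called higher.

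BaP, which activates the aryl hydrocarbon receptor, lowered Acly and Fasn. Acly was at 166, 173 and 159 CPM, below every library of both controls, with a log2 change of -0.79 ± 0.09 against DMSO (adjusted p 8.35e-08) and -0.59 ± 0.09 against medium (adjusted p 6.71e-06). Fasn was at 73.3, 72.9 and 88 CPM, with -0.56 ± 0.11 (adjusted p 0.000438) and -0.72 ± 0.11 (adjusted p 5.76e-06). Gpam was at 177, 187 and 274 CPM, above both controls, with 0.38 ± 0.12 (adjusted p 0.0458) and 0.64 ± 0.12 (adjusted p 0.000223); the call against DMSO was lost without any 1 DMSO library or BaP replicate 3 (0.19 to 0.48). In all, 3 of 9 were called against DMSO (9.17% of all probes) and 5 of 9 against medium (19.7%), where Dgat2 was higher (0.32 ± 0.11, lost without any 1 medium library or BaP replicate 2 or 3, 0.26 to 0.38) and G0s2 lower (-0.84 ± 0.17). The G0s2 libraries of BaP, at 12.6 to 14.5 CPM, lay above all set 1 DMSO libraries (9.68 to 10.9 CPM), without a call. Medium itself was above DMSO in G0s2 by a log2 of 1.19.

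G0s2 stood below medium with CITCO, an activator of human CAR that is weaker on the rat receptor, and with RIF, an activator of human PXR. With CITCO it was at 13.5, 15.8 and 17.8 CPM (10 µM) and 12.9, 13.2 and 14.1 CPM (20 µM), and with RIF at 11, 12.3 and 11.3 CPM (20 µM) and 12.5, 13.9 and 9.12 CPM (40 µM). All CITCO libraries lay between the DMSO and the medium libraries, while RIF at 40 µM overlapped with DMSO. All these libraries were below all medium libraries, with log2 changes against medium of -0.62, -0.85, -1.08 and -1.08, each called. That at 10 µM CITCO was lost without any 1 medium library or CITCO replicate 1 or 2 (-0.72 to -0.54). At 10 µM CITCO G0s2 was the only member called (2.58% of all probes), as it was with RIF at 20 µM (0.273%) and 40 µM (3.31%). At 20 µM CITCO 5 of 9 were called against medium (14.7%): Gpam (0.43 ± 0.12) and Dgat2 (0.39 ± 0.11) higher, Fasn (-0.34 ± 0.10), Elovl6 (-0.73 ± 0.23) and G0s2 lower. Each of those calls but G0s2 was lost without single libraries: Gpam without medium replicate 1 or 2 or CITCO replicate 1 (0.35 to 0.55), Dgat2 without medium replicate 2 or CITCO replicate 2 (0.32 to 0.45), Fasn without medium replicate 1 or 3 or CITCO replicate 2 (-0.40 to -0.27) and Elovl6 without medium replicate 1 or 3 or CITCO replicate 1 (-0.92 to -0.45).

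Against DMSO no member was called with CITCO (0.149 and 0.843% of all probes) or with 40 µM RIF (1.69%). There edgeR gave 5 of 18 and 1 of 9 member tests an unadjusted p under 0.05, and DESeq2 called 0. RIF at 20 µM lowered Acly (226, 218 and 239 CPM, -0.32 ± 0.09, adjusted p 0.0359, 2.87% of all probes; -0.11 against medium, adjusted p 0.816), a call lost without DMSO replicate 1 or any 1 RIF library (-0.38 to -0.23).

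The rest of the pathway was read from 8 lists of genes outside the 9 members, at 10 mM NE, where 28.9% of all probes were called against DMSO and 34.0% against medium. Partners of fatty acid synthesis had 2 probes called higher and 3 lower of 19 against DMSO (median log2 -0.22), and 3 higher and 4 lower against medium (0.06). Scd, the desaturase that makes oleate, was lower by both comparisons at its more abundant probe (-2.17 and -1.68), as was Scd2 (-0.75 and -1.25), while Elovl1, which lengthens saturated chains, was higher at 1 of its 2 probes (0.64 and 0.88). Genes of NADPH and glucose supply had 3 higher and 1 lower of 13 against DMSO and 5 higher and 0 lower against medium. Me2, the mitochondrial NAD-dependent relative of Me1, was higher (0.74 and 0.67), and Pfkl, the liver phosphofructokinase, was lower against DMSO (-0.51; -0.30 against medium, adjusted p 0.241).

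Triglyceride assembly and export had 2 higher and 4 lower of 17 against DMSO (28.9% of all probes called) and 5 higher and 3 lower against medium (34.0%). Calls in both directions were made over all probes too, 1634 higher and 1923 lower against DMSO and 2052 higher and 2145 lower against medium. The genes named next are among the called probes of this list with the largest changes. Gpat3, another glycerol-3-phosphate acyltransferase (1.52 and 1.16), and Lpin1, which makes diacylglycerol (1.20 and 1.64), were higher, while Acsl5, which activates fatty acids (-1.66 and -2.24), and Agpat2, which adds the next acyl chain (-0.77 and -0.999), were lower. Genes of the lipid droplet and of lipolysis had 2 higher and 1 lower of 12 against DMSO and 2 higher and 3 lower against medium. Abhd5, the co-activator of the lipase that G0s2 inhibits, was lower (-0.80 and -0.68), and Lipa, the lysosomal lipase, was higher (1.27 and 1.19).

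Regulators of lipogenesis had 9 higher and 4 lower of 31 against DMSO (28.9% of all probes called) and 10 higher and 3 lower against medium (34.0%). Both probes of Mbtps2, a protease that releases SREBPs from the membrane, were higher (0.77 and 1.71 against DMSO, 1.03 and 1.21 against medium), and Srebf2, the regulator of cholesterol synthesis, was lower (-0.89 and -0.95), opposite to Srebf1. Targets of SREBP2 in cholesterol synthesis had 0 higher and 11 lower of 15 against DMSO (median -1.20) and 1 higher and 11 lower against medium (median -1.12), with Hmgcs1 (-2.54 and -2.36) and Idi1 (-2.36 and -2.15) lowest. Targets of PPAR-alpha had 11 higher and 1 lower of 18 against DMSO (median 0.47) and 14 higher and 0 lower against medium (median 1.09), led by Pdk4, a brake on glucose oxidation (2.39 and 3.47). Of 5 LXR targets outside lipogenesis 2 were higher and 1 lower by both comparisons, with the sterol exporter Abcg1 at -1.39 and -1.21. The sterol exporter Abcg5 stood at a mean of 3.49 CPM with NE against 0.157 and 0.0804 CPM in DMSO and medium, which is under the level of 3 counts. With such controls it could pass the filter on low counts only through treated groups, so its higher level is not read as a result. The filter thus helped set any count that includes it. The NE fits tested 5 probes of this list and 31 of the regulators, the NM fits 4 and 30. The median over all probes was 0.03 in both comparisons.

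At 10 mM NM, 10 of the 15 SREBP2 targets were lower against DMSO (7.19% of all probes called) and 5 against medium (0.662%), and 0 were higher. BaP lowered 11 of 15 by both comparisons (9.17 and 19.7%), and 1 was higher against medium. Against DMSO, WY called 0 higher and 1 lower in set 1, and 0 in either direction in set 2. Against medium, it called 0 in either direction in set 1, and 9 higher and 0 lower in set 2 (16.9%). Of the 18 PPAR-alpha targets, WY raised 15 and 14 against DMSO in sets 1 and 2 (4.88 and 0.901% of all probes called) and all 18 against medium in both (5.80 and 16.9%). NE at 3 mM raised 14 against medium (11.5%) and 0 against DMSO (6.08%), where 1 was lower. BaP raised 14 against medium and 2 against DMSO. At 10 mM NM, 15 were lower against DMSO and 0 were called against medium. Counts for this list thus moved with the choice of control, as G0s2 did.

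How the members moved together differed between the sets. Over the 24 group means of set 1, Srebf1 had a Pearson r of 0.73 with Gpam, 0.61 with G0s2, -0.61 with Fasn and -0.64 with Dgat2, and Fasn had 0.68 with Dgat2 and 0.60 with Acly (log2 of CPM + 1; groups share plates, controls and 1 cell lot, so these values are descriptions). Over the 11 group means of set 2, Acly had 0.86 with Elovl6, 0.76 with Acaca, 0.70 with Me1 and 0.18 with Fasn, Acaca had 0.83 with Elovl6, and Srebf1 had 0.49 with Gpam, 0.67 with G0s2, -0.60 with Fasn and -0.36 with Dgat2. Outside the members, probes with group means most like those of a member in set 1 were Apaf1 for Fasn (r 0.94, and 0.28 over the 11 groups of set 2), Mvk for Acly (0.78 and -0.41), Ac1576, at its second place, for Acaca (0.88 and 0.31), Srek1 for Elovl6 (0.85 and 0.34), Ica1 for Srebf1 (0.91 and 0.69), Map3k13 for Gpam (0.92 and 0.71), and Lamp1 for Dgat2 (0.92 and 0.71). Next for Fasn came Srebf2 (0.93 and 0.75). Me1 was most like Cpt1b and, at the third place, Acadm, enzymes of fatty acid oxidation (0.86 and 0.83 in set 1, 0.87 and 0.94 in set 2). G0s2 was most like Trib3, Lonp1 and Stbd1 (0.87, 0.86 and 0.84 in set 1, 0.75, 0.83 and 0.84 in set 2).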

How the data were processed

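TempO-Seq detector-oligonucleotide counts of 22253 probes in the libraries of 35 groups were used as deposited by the authors, as raw counts per probe; every column of the table matched 1 sample. Per the submitters' processing notes, FastQC, Bowtie, R 3.5.3 and DESeq2 1.28.1 were used; no build and no aligner version was given in the sources used here. The labels name a human whole-transcriptome panel although the symbols in the table are those of rat genes. Nitroalkane concentrations were taken as mM, as in the labels' protocol, since the sample titles give the same numbers in µM. The protocol gives DMSO as 0.2%, the titles as 0.5.

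Groups of 3 came from the labels, which call the libraries biological replicates. Levels are counts-per-million (CPM) of the library total; 1 probe per gene was read, so levels were not compared between genes. Library totals ran from 5475419 to 11122665, at which 3 counts are 0.270 to 0.548 CPM. Changes were fitted with edgeR 4.0.16 (R 4.3.3, limma 3.58.1) by the quasi-likelihood test with TMM scaling, after a filter on low counts (minimum count 10, minimum total 15). Each nitroalkane was fitted with 1 control of its set, and the reference compounds of a set with both controls. P-values were adjusted by Benjamini-Hochberg over all probes of a fit, with 0.05 as threshold; 24 pairs of compounds were also adjusted per gene. Slopes are per rank of concentration. The procedure was tested on simulated data. All members were named; from each list of other genes, at most the 4 called probes with the largest change per direction and comparison could be named, and for likeness the 3 probes with the highest correlation over set 1 groups, among probes averaging at least 10 CPM.

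The members and lists were chosen with earlier results of these data known. Alternatives were DESeq2 1.42.0, other size factors, no filter, fits of only the 2 groups, a replicate block and each library left out in turn; leaving out 6 libraries together was chosen after seeing the data. The replicate numbers did not pair the samples: in 4 of 48 comparisons every same-numbered pair correlated above 0.1 (range -0.424 to 0.597). No libraries were identical. The formaldehyde control that the labels mention was not analysed here. Hepatocytes were checked by 7 of 8 markers found. Results for some genes of the lists are not reported here.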

Additional observations from a re-analysis of the deposited data

Results flagged for a closer look

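At 10 mM the responses of the hepatocytes to NE and NM differed in 3 members, beside 11.7% of all probes, by a test of the difference itself (edgeR). Srebf1, the regulator of lipogenesis, was higher with NE by a log2 of 1.70 (adjusted p 0.00214; all 3 NE libraries above all 3 NM libraries). G0s2, the lipase inhibitor, was higher by 1.42 (adjusted p 0.00519; 3 of 3 libraries). Fasn, the fatty acid synthase, differed by -1.05 (adjusted p 0.012; 3 of 3 libraries lower), a call lost without NE replicate 1 or 3. One of the NM libraries, replicate 3, stood apart, and without it the differences were 1.67, 1.35 and -0.94, all called.

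Elovl6, the palmitate elongase, differed between 1NP and NE at 0.1 mM when each was set against DMSO (log2 -1.31, adjusted p 0.00889), and between 1NP and NM at 0.01 mM when each was set against medium (1.28, adjusted p 0.0358). With the other control these differences were -0.12 (adjusted p 0.959) and 0.09 (adjusted p 0.999). The controls of set 2 themselves differed in Elovl6, with 16.9, 15.9 and 16.2 CPM in DMSO and 12.7, 7.16 and 8.56 CPM in medium. The part of this gap in the difference was not tested. Groups of 3 libraries are too small for a test of single outlying libraries, and none was made.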

How the results depend on the processing

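No value that passed the test in either fit changed sign under an alternative; values that passed in neither did, as G0s2 at 10 mM 1NP against medium (0.73, and -0.73 without the 6 libraries that stood apart). The results against DMSO and medium at 10 mM NE (6 members each) and at 3 mM NE (3 and 5) stayed within 1.5 times their count throughout. In fits of only the 2 groups compared, the members called fell from 1 to 0 at 3 mM NM and at 10 mM NM against DMSO, rose from 3 to 16 over 0.003 to 1 mM 1NP and from 0 to 1 at 3 mM 1NP against DMSO, and fell from 1 to 0 at 10 mM 1NP against either control. Without a filter on low counts the count fell from 1 to 0 at 10 mM NM against DMSO, and against medium it rose from 0 to 1 over 0.003 to 1 mM 1NP, from 0 to 1 at 3 mM 1NP and from 1 to 3 at 10 mM 1NP. DESeq2 called 8 in place of 3 over 0.003 to 1 mM 1NP and 1 in place of 0 at 3 mM 1NP against DMSO. Members with a called slope fell from 1 to 0 without 10 mM for NM and for 1NP, and rose from 1 to 2 for 1NP with medium as the lowest rank. Over all probes the share with a called slope went from 9.88 to 2.68% and from 4.77 to 0.792%, and for 1NP with medium to 11.3%. Without the 6 libraries that stood apart, against DMSO the count rose from 1 to 3 at 10 mM NM, from 3 to 10 over 0.003 to 1 mM 1NP and from 0 to 2 at 3 mM 1NP. Calls over all probes rose there too, from 879 to 1376 at 10 mM NM and from 69 to 404 at 3 mM 1NP. At the 6 concentrations from 0.003 to 1 mM 1NP they rose from 2414, 49, 124, 616, 124 and 180 to 3451, 189, 464, 1585, 416 and 789. Against medium the member count then rose from 0 to 1 at 10 mM NM, over 0.003 to 1 mM 1NP and at 3 mM 1NP. It fell from 1 to 0 at 10 mM 1NP. Calls over all probes went from 81 to 275 at 10 mM NM, 27 to 537 at 3 mM 1NP and 1237 to 82 at 10 mM 1NP. From 0.003 to 1 mM 1NP they went from 1, 23, 0, 2, 0 and 8 to 1, 283, 35, 4, 340 and 49. Members with a called slope then went from 1 to 2 for NM and from 1 to 0 for 1NP (1205 to 619 and 575 to 206 probes). Calls over all probes are not reported here for fits of only the 2 groups, without a filter, with DESeq2 or with single libraries left out. The cause was not tested.

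With each library left out in turn, counts ran from 0 to 1 at 10 mM NM against DMSO (1 with all libraries), 0 to 0 over 0.003 to 1 mM NE against medium (1), 0 to 4 over 0.003 to 1 mM 1NP (3) and 0 to 2 at 10 mM 1NP (1) against DMSO, and 0 to 2 at 10 mM 1NP against medium (1). They ran from 0 to 1 for RIF against DMSO (1), 2 to 6 for CITCO (6) and 2 to 5 for WY in set 1 (4) against medium, 1 to 1 for WY in set 2 (2) and 2 to 5 for medium of set 2 (4) against DMSO, and 2 to 6 for NE minus NM at 10 mM (3).

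With the replicate block, NE minus NM at 10 mM called 4.98% of all probes, against 11.7% without it. The block fit called 2 members, Srebf1 (1.70, adjusted p 0.0217) and G0s2 (1.41, adjusted p 0.0416), and Fasn was at -1.04 (adjusted p 0.0655). Other calls that changed with the block follow. Gpam with BaP against DMSO was at 0.38 (adjusted p 0.06) and Dgat2 with set 2 WY against medium at 0.60 (adjusted p 0.0223). The block changed no other call of a member where it was fitted. It was not fitted for 1NP against its controls, which share no replicate numbers with it. TMM-scaled levels moved by less than the spread of a group for 309 of 315 group means, and by at most 11.7%. The precision is limited by 3 libraries a group and, for Elovl6, by counts as low as 31.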
